A study of Mus musculus with 2 samples.

Results

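Complement genes in the stroma and epithelium of the mouse lung at postnatal day (P) 14 are described here through 8 genes, *C1ra*, *C1s1*, *C4b*, *C3*, *Cfb*, *Hc*, *C7* and *Serping1*. They were picked by symbol from the 32285 genes counted in the libraries, and their unique molecular identifiers (UMIs) were summed per cell class and library. Each of the 8 was present in the gene list of both libraries. Their transcripts were divided among classes in a regular way. *C3*, *C4b* and *Cfb* were highest in mesothelial-like cells, *C7* in alveolar fibroblast-like cells, *Hc* in AT2-like cells and *Serping1* in adventitial fibroblast-like cells, while *C1ra* and *C1s1* were found in several stromal classes but little in myofibroblast-like cells. Between the libraries, *C3* was lower in mesothelial-like cells of the *Gli1 HHIPCKO* mouse and higher in its adventitial fibroblast-like cells, and *C7* was higher in its alveolar fibroblast-like cells.

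Complement is a set of proteins that tag microbes, dying cells and debris for removal and that can open pores in membranes. In the classical pathway the protease C1r activates C1s, which cleaves C4 and C2, in the alternative pathway factor B drives amplification, and both pathways meet at C3 and go on to a terminal pore. Most plasma complement is made in the liver, and lung epithelial cells, mesothelium and fibroblasts are also known to make complement proteins.

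The study deleted *Hhip*, which encodes a protein that binds and restrains Hedgehog ligands, in the lung stroma from birth. Both mice were *Gli1 creER/+:Hhip flox/flox* and were taken at P14. The control mouse received oil, and the *Gli1 HHIPCKO* mouse received tamoxifen, which lets the Cre recombinase act. Stromal cells without CD45, CD31 and CD326 and epithelial cells were sorted and combined at 3:1, so the share of epithelial cells in a library was set by the mix. The Cre is driven by the *Gli1* locus, so deletion is limited to cells that used this locus when tamoxifen was given, and epithelial cells were not its target. Each group is 1 mouse, so every difference below is between 1 library and another, has no replicate check and no p-value, and cannot be told apart from a difference between individual mice or from an effect of tamoxifen itself. The control library held 43291709 UMIs in 10999 barcodes, its cells had a median of 3531 UMIs, and 21254 genes were detected. The *Gli1 HHIPCKO* library held 52338969 UMIs in 12350 barcodes, its median was 3720 UMIs, and 21437 genes were detected. The libraries shared 193 barcode sequences.

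The targeted gene was lower in the *Gli1 HHIPCKO* library, though not absent. *Hhip* stood at 1151 counts per 1000000 UMIs of the class (CPM) in control myofibroblast-like cells and at 318 CPM in those of the *Gli1 HHIPCKO* mouse. In mesothelial-like cells it stood at 255 CPM in the control and 73.1 CPM in the *Gli1 HHIPCKO* library, in alveolar fibroblast-like cells at 131 and 54.1 CPM, and in adventitial fibroblast-like cells at 110.4 and 72.6 CPM. Red cell-like cells, which should lack the gene, held 140.4 and 46.4 CPM in the same order, so the summed alveolar and adventitial levels were not clear of it, although these cells also carried AT2 transcripts and are not a plain background. After thinning, a *Hhip* UMI was found in 18.6% of control alveolar fibroblast-like and 7.32% of control red cell-like cells, with intervals that did not overlap. The check rests mainly on the myofibroblast-like cells. *Xist*, the RNA of the inactive X chromosome, had 0 UMIs in the control fibroblast-like, mesothelial-like, smooth muscle-like and pericyte-like cells and 315 CPM in the *Gli1 HHIPCKO* myofibroblast-like cells. The mice thus differed in *Xist*, and sex and *Hhip* deletion cannot be told apart for any gene below.

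After filtering, 10917 control and 12115 *Gli1 HHIPCKO* cells were clustered with all complement genes held out, and clusters were given "-like" names from marker genes that include no complement gene. Clusters without a name held 20.5% of cells in the control and 19.3% in the *Gli1 HHIPCKO* library. Compared were 7 classes with at least 100 cells in each library. They held 333 and 332 mesothelial-like cells in the control and *Gli1 HHIPCKO* libraries, 367 and 463 adventitial fibroblast-like, 438 and 1566 alveolar fibroblast-like, 2829 and 2988 myofibroblast-like, 250 and 254 vascular smooth muscle-like, 432 and 714 pericyte-like, and 2962 and 2800 AT2-like cells. Also given are 2 unnamed stromal clusters, called here by leading genes, the *Rbp4* *Lbp* cluster with 269 and 281 cells and the *Aqp1* *C1qtnf3* cluster with 178 and 107 cells. The myofibroblast-like class was held mostly by different clusters in the control and *Gli1 HHIPCKO* libraries, namely those led by *Stc1*, *Efnb2* and *Fos* in the control and those led by *Ace*, *Lnx1* and *Junb* in the *Gli1 HHIPCKO* library. AT2-like cells lay mostly in a cluster led by *Ager* and *Chia1* in the control, with 2119 cells, and mostly in a cluster led by *Lcn2* in the *Gli1 HHIPCKO* library, with 2188 cells. Intervals in parentheses are exact 95% intervals, Poisson for levels and binomial for ratios and shares, and they cover counting error only.

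**Figure D1:**
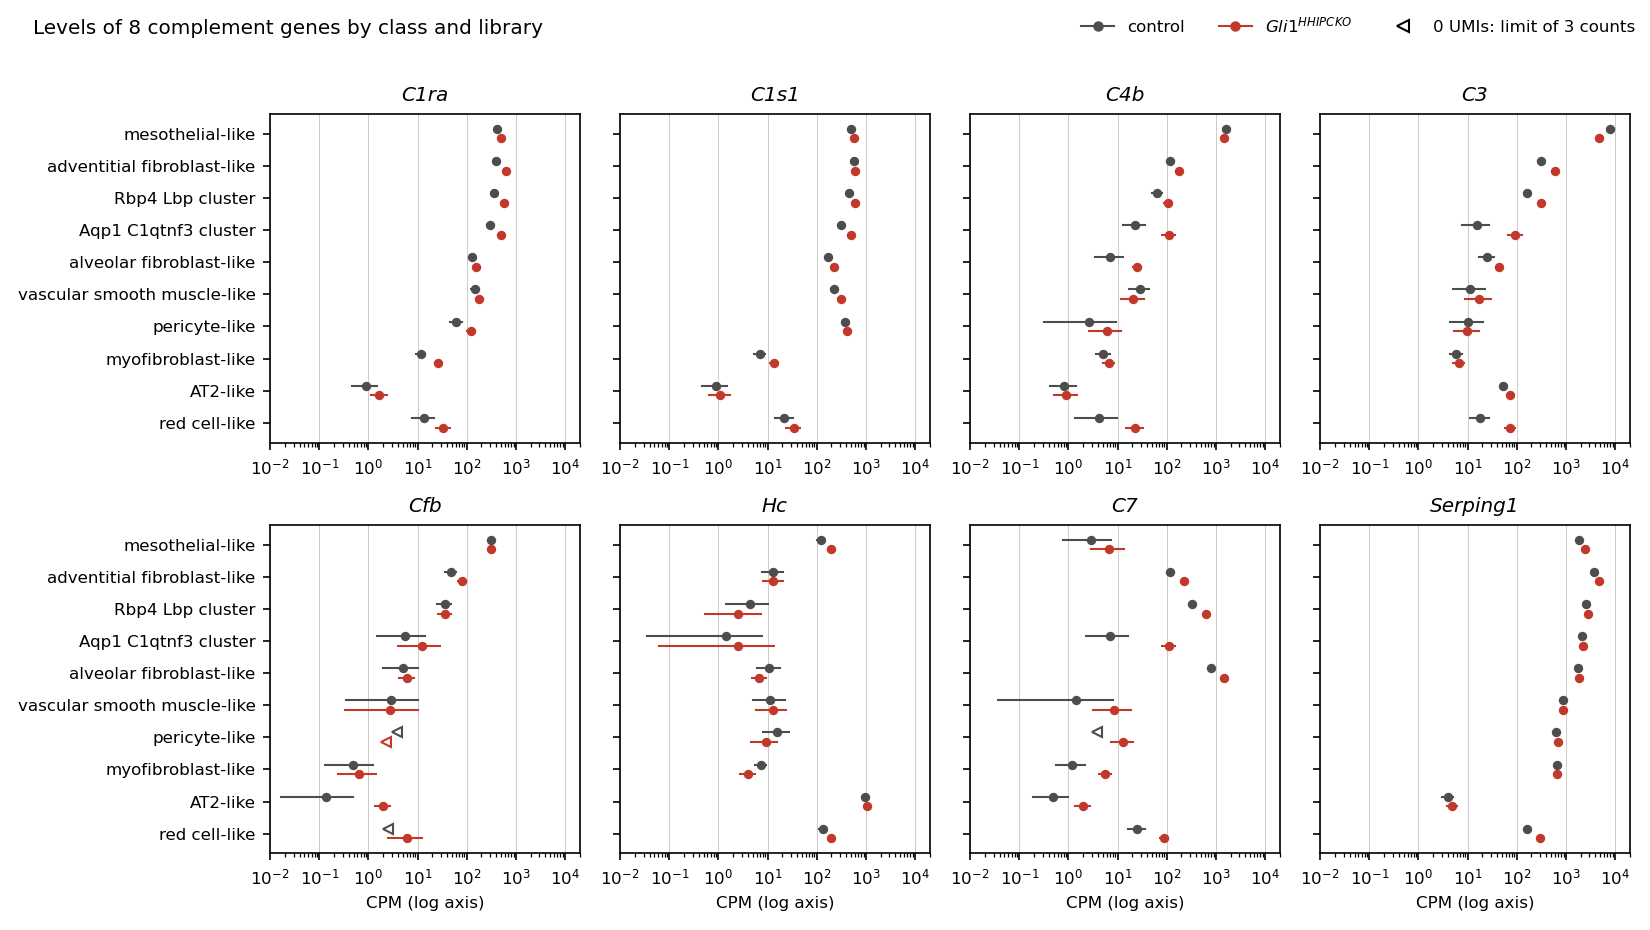
Level of each of the 8 genes (CPM, log axis) in 7 classes, 2 unnamed clusters and red cell-like cells of the control (grey) and *Gli1 HHIPCKO* (red) library, with exact Poisson 95% intervals as lines and open triangles where 0 UMIs were counted. *C3*, *C4b* and *Cfb* peak in mesothelial-like cells, *Hc* in AT2-like cells and *C7* in alveolar fibroblast-like cells.

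*C1ra* and *C1s1* encode the C1r and C1s proteases that open the classical pathway, and both were found in several stromal classes. *C1ra* stood at 407 CPM (374 to 442) in control and 508 CPM (469 to 551) in *Gli1 HHIPCKO* mesothelial-like cells, and at 404 (371 to 440.3) and 635 CPM (596 to 677) in adventitial fibroblast-like cells. It was higher in the *Gli1 HHIPCKO* library in both classes, by 0.32 (0.15 to 0.49) and 0.65 (0.50 to 0.81) on the log2 scale. In the *Rbp4* *Lbp* cluster *C1ra* stood at 365 and 569 CPM, and in the *Aqp1* *C1qtnf3* cluster at 293 and 491 CPM, which gave log2 ratios of 0.64 (0.46 to 0.82) and 0.75 (0.46 to 1.03). The control levels of these 4 groups of cells overlapped from neighbour to neighbour in their intervals, and those of the *Gli1 HHIPCKO* library did so too. Below them came vascular smooth muscle-like cells at 148 and 182 CPM and alveolar fibroblast-like cells at 128 and 154 CPM, which overlapped in both libraries. Pericyte-like cells held less *C1ra*, at 62.1 CPM (45.8 to 82.3) in the control and 121 CPM (103 to 141) in the *Gli1 HHIPCKO* library. The pericyte-like level was the higher one in the *Gli1 HHIPCKO* library, with a log2 ratio of 0.96 (0.48 to 1.45). *C1ra* was close to absent from AT2-like cells, at 0.881 and 1.67 CPM.

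*C1s1* stood at 568 CPM (528 to 610.4) in control and 617 CPM (578 to 658) in *Gli1 HHIPCKO* adventitial fibroblast-like cells, where it was highest in both libraries. The ratio was 0.12 (-0.02 to 0.26), a difference that was not detectable at this depth, although it was 0.35 at resolution 0.5, 0.42 at resolution 2 and 0.32 with immediate early genes held out. Mesothelial-like cells followed at 489.8 and 578 CPM, the *Rbp4* *Lbp* cluster at 466 and 609 CPM and the *Aqp1* *C1qtnf3* cluster at 307 and 511 CPM, each higher in the *Gli1 HHIPCKO* library, and neighbours among these levels overlapped in that library. *C1s1* differed from *C1ra* in pericyte-like cells, where it stood at 383 CPM (341 to 429) and 411 CPM (377 to 447), inside the range of the fibroblast-like classes and with overlapping intervals in both libraries. Vascular smooth muscle-like cells held 226 and 313 CPM and alveolar fibroblast-like cells 173 and 226 CPM, both higher in the *Gli1 HHIPCKO* library. Pericyte markers in the vascular smooth muscle-like cells also summed higher there, at 2239 and 3741 CPM, so a change of the class and a share of other cells cannot be told apart. In alveolar fibroblast-like cells the direction of *C1ra* and *C1s1* depended on the clustering, with ratios of -0.29 and -0.19 when the libraries were clustered separately. AT2-like cells held 0.881 and 1.07 CPM of *C1s1*. In pericyte-like cells a UMI of *C1s1* was found in 45.6% and 49.0% of the cells, and in 51.2% and 53.9% after each cell was thinned to 2000 UMIs. Red cell-like cells, which should lack it, held a *C1s1* UMI in 1.95% and 5.46% after thinning, so the pericyte-like share lay far above that of red cell-like cells. Before thinning, median depth was 1709 and 1805 UMIs in pericyte-like and 4979 and 5224 in red cell-like cells, and thinning left out 266 control and 434 *Gli1 HHIPCKO* pericyte-like cells and 10 and 14 red cell-like cells.

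Myofibroblast-like cells, the most numerous stromal class, held little of either protease gene. *C1ra* stood at 11.7 CPM in the control and 25.6 CPM in the *Gli1 HHIPCKO* library, a log2 ratio of 1.13 (0.78 to 1.48), and *C1s1* at 7.03 and 13.5 CPM, a ratio of 0.94 (0.49 to 1.41). Both were higher in the *Gli1 HHIPCKO* library, at levels no higher than those of red cell-like cells. *C1ra* in red cell-like cells stood at 13.6 and 33.3 CPM, and a *C1ra* UMI was found in 2.08% and 4.89% of thinned myofibroblast-like cells against 0.488% and 6.01% of thinned red cell-like cells. In the control the myofibroblast-like share was the higher one, although the intervals of these shares overlapped. AT2-like cells held less *C1ra* than either class, so the source of these low counts was not settled and no difference is read from them. The genes *C1rb* and *C1s2* are close copies of *C1ra* and *C1s1*, and each had fewer than 50 UMIs in every class and cluster compared. Reads that fit both copies may have been lost or split, so the absolute levels of *C1ra* and *C1s1* are uncertain.

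*C4b* encodes C4, the protein that C1s cleaves. In mesothelial-like cells it stood at 1633 CPM (1567 to 1702) in the control and 1465 CPM (1397 to 1536) in the *Gli1 HHIPCKO* library. The level was lower in the *Gli1 HHIPCKO* library by a small margin, with a log2 ratio of -0.16 (-0.25 to -0.07), which came to -0.04 as a mean over cells and -0.02 at resolution 2. In adventitial fibroblast-like cells *C4b* stood at 119.6 CPM (102 to 139.8) and 175 CPM (155 to 198), a ratio of 0.55 (0.26 to 0.85), and in the *Rbp4* *Lbp* cluster at 63.1 and 104 CPM, a ratio of 0.72 (0.29 to 1.16). These fibroblast levels were thus higher in the *Gli1 HHIPCKO* library while the mesothelial-like level was not. The adventitial ratio depended on the treatment of the cells, from 0.21 as a mean over cells to 1.12 at resolution 2. Mesothelial-like cells made up 3.05% and 2.74% of the cells in the libraries and held 80.1% (78.6 to 81.6) and 63.2% (61.4 to 65.0) of all *C4b* UMIs.

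In alveolar fibroblast-like cells *C4b* was close to the level of red cell-like cells. Alveolar fibroblast-like cells held 10 UMIs in the control and 132 in the *Gli1 HHIPCKO* library, or 7.19 and 24.98 CPM, and the ratio was 1.80 (0.87 to 2.89). Red cell-like cells held 4.25 and 22.8 CPM. A *C4b* UMI was found in 1.83% (0.674 to 3.94) and 4.62% (3.51 to 5.94) of thinned alveolar fibroblast-like cells and in 0.488% (0.0124 to 2.69) and 3.28% (1.21 to 6.999) of thinned red cell-like cells, and the intervals of these classes overlapped in both libraries. With the libraries clustered separately the ratio turned to -0.27. The difference in alveolar fibroblast-like cells thus did not stand apart from that in red cell-like cells. In the *Aqp1* *C1qtnf3* cluster *C4b* stood at 22.4 CPM (12.8 to 36.4) and 111 CPM (81.0 to 149), a ratio of 2.31 (1.46 to 3.23). A UMI was found there in 4.80% (1.95 to 9.63) of control and 13.3% (6.81 to 22.5) of *Gli1 HHIPCKO* thinned cells, with overlapping intervals. *C4a*, a near-identical neighbour of *C4b*, had fewer than 50 UMIs in every class and cluster compared, and reads that fit both genes may have been lost or split.

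*C3* encodes the protein on which the pathways converge, whose cleaved form binds to surfaces and tags them. It was concentrated in mesothelial-like cells, although no complement gene took part in naming them. *C3* stood at 8051 CPM (7902 to 8202) in control and 4639 CPM (4517 to 4764) in *Gli1 HHIPCKO* mesothelial-like cells, 26.2 and 7.59 times the level of adventitial fibroblast-like cells, which came next. The mesothelial-like level was lower in the *Gli1 HHIPCKO* library, with a log2 ratio of -0.80 (-0.84 to -0.75). Nearly every cell of the class held a UMI, 98.8% of control and 97.0% of *Gli1 HHIPCKO* cells before thinning and 98.5% and 96.7% after it, against 0.488% and 4.37% of thinned red cell-like cells. The difference was therefore one of amount per cell. Per cell thinned to 2000 UMIs, the median was 14 UMIs of *C3* in the control and 8 in the *Gli1 HHIPCKO* library, and the 10th and 90th percentiles were 4 and 37 in the control and 2 and 21 in the *Gli1 HHIPCKO* library. The distributions overlapped over most of their range, and the *Gli1 HHIPCKO* cells lay lower through it. Median depth of these cells was 3747 UMIs in the control and 2635 in the *Gli1 HHIPCKO* library, thinning left out 72 and 120 cells, and the ratio over thinned cells was -0.74. The 9 mesothelial markers summed to 10950 and 11690 CPM, so markers of the class did not fall with *C3*.

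In fibroblast-like cells the order of the libraries was the other way round. *C3* stood at 307 CPM (278 to 338) in control and 612 CPM (573 to 652) in *Gli1 HHIPCKO* adventitial fibroblast-like cells, a ratio of 0.99 (0.82 to 1.17). In the *Rbp4* *Lbp* cluster it stood at 163 CPM (140.0 to 188) and 312 CPM (281 to 346), a ratio of 0.94 (0.68 to 1.20). Both levels were close to 1 log2 unit higher in the *Gli1 HHIPCKO* library, and their intervals did not overlap between libraries. The adventitial ratio lay just under the line of 1 and passed it under some other clusterings, at 1.18 with resolution 0.5, 1.35 with resolution 2 and 1.30 with immediate early genes held out, while it was smaller as a mean over cells, at 0.74. A *C3* UMI was found in 30.8% of control and 38.9% of *Gli1 HHIPCKO* adventitial fibroblast-like cells, and in 24.7% and 35.5% of the thinned ones. Most of these cells thus held no *C3* UMI at 2000 UMIs, and the difference lay in the upper tail, where the 90th percentile was 2 UMIs in the control and 5 in the *Gli1 HHIPCKO* library. Thinning left out 88 and 145 of these cells, whose median depth was 3277 and 2908 UMIs.

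AT2-like cells held a low level of *C3*. It stood at 52.1 CPM (48.5 to 56.0) in the control and 72.0 CPM (68.0 to 76.2) in the *Gli1 HHIPCKO* library, a ratio of 0.47 (0.33 to 0.60). A UMI was found in 21.2% and 30.9% of cells. After thinning, with 105 and 58 cells dropped as too shallow, the shares were 9.94% and 12.7%. Both thinned shares were above those of red cell-like cells, and the *Gli1 HHIPCKO* level was the higher one. The summed level of red cell-like cells, 17.9 and 73.5 CPM, reached that of AT2-like cells in the *Gli1 HHIPCKO* library, where 18 of 197 red cell-like cells held all 84 UMIs. Within the cluster led by *Lcn2* the level was 53.7 and 74.5 CPM, and within the cluster led by *Ager* it was 51.4 and 60.5 CPM, so the order of the libraries was the same in each, although the interval of the ratio in the second cluster, -0.02 to 0.48, included 0. Alveolar fibroblast-like cells held 24.4 and 44.1 CPM of *C3*, a ratio of 0.85 (0.33 to 1.42), below the red cell-like level in the *Gli1 HHIPCKO* library. The share of thinned alveolar fibroblast-like cells with a *C3* UMI, 3.96% and 4.13%, was not above that of red cell-like cells in the *Gli1 HHIPCKO* library, and the ratio was -1.01 with the libraries clustered separately, so no difference is read there. Together these levels made the distribution of *C3* less one-sided. Mesothelial-like cells held 82.9% (82.3 to 83.6) of all *C3* UMIs in the control and 56.5% (55.5 to 57.5) in the *Gli1 HHIPCKO* library, unnamed clusters 6.84% and 16.7%, AT2-like cells 5.72% and 12.5%, and adventitial fibroblast-like cells 3.00% and 9.60%.

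**Figure D2:**
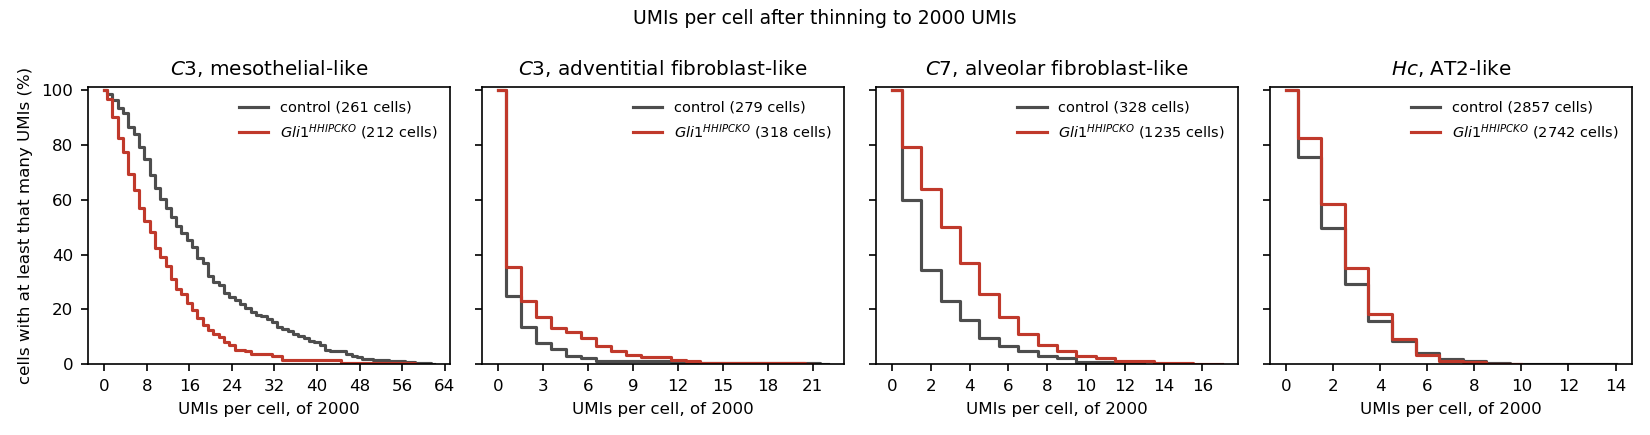
Share of cells (%) with at least a given number of UMIs of *C3*, *C7* or *Hc* after each cell was thinned to 2000 UMIs, in the control (grey) and *Gli1 HHIPCKO* (red) library. Mesothelial-like cells held less *C3* per cell in the *Gli1 HHIPCKO* library, with medians of 14 and 8 UMIs, and alveolar fibroblast-like cells held more *C7*, with medians of 1 and 3 UMIs.

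*Cfb* encodes factor B, the protease that joins cleaved C3 in the alternative pathway. Like *C3*, it was highest in mesothelial-like cells, followed by adventitial fibroblast-like cells. *Cfb* stood at 311 CPM (282 to 341) in control and 316 CPM (285 to 350.2) in *Gli1 HHIPCKO* mesothelial-like cells. The levels were alike, with a log2 ratio of 0.03 (-0.18 to 0.23), while *C3* in the same cells was lower in the *Gli1 HHIPCKO* library. In adventitial fibroblast-like cells *Cfb* stood at 47.2 CPM (36.2 to 60.5) and 79.8 CPM (66.2 to 95.4), a ratio of 0.76 (0.30 to 1.22), higher in the *Gli1 HHIPCKO* library. In the *Rbp4* *Lbp* cluster it stood at 35.6 and 35.5 CPM, with no difference detectable at this depth. AT2-like cells held 2 *Cfb* UMIs in the control and 33 in the *Gli1 HHIPCKO* library, 0.136 and 1.97 CPM, a ratio of 3.86 (1.89 to 6.96) on few counts that were no more than the background of red cell-like cells. The 33 UMIs came from 28 of 2800 cells, and red cell-like cells held 0 *Cfb* UMIs in the control, which allows up to 2.55 CPM, and 6.13 CPM in the *Gli1 HHIPCKO* library. Pericyte-like cells held 0 *Cfb* UMIs in both libraries, which allows up to 3.88 CPM in the control and 2.27 CPM in the *Gli1 HHIPCKO* library.

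*Hc* encodes complement component C5, whose cleavage starts the terminal pathway, and it was an epithelial gene in these libraries. In AT2-like cells it stood at 965 CPM (949.6 to 981) in the control and 1046 CPM (1031 to 1062) in the *Gli1 HHIPCKO* library, a log2 ratio of 0.12 (0.08 to 0.15). The difference was small and the counting error smaller. A *Hc* UMI was found in 91.1% of control and 95.9% of *Gli1 HHIPCKO* AT2-like cells, and in 75.8% and 82.4% after thinning. The cluster led by *Lcn2* held 1004 and 1059 CPM and the cluster led by *Ager* 947 and 986 CPM, so the level was near the same in each cluster and library. AT2-like cells held 74.4% of all *Hc* UMIs in the control and 72.1% in the *Gli1 HHIPCKO* library. Most of the rest, 22.1% and 25.04%, lay in unnamed clusters, some of them led by AT2 markers such as *Sftpc*.

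Outside AT2-like cells *Hc* was low or came together with other AT2 transcripts. In mesothelial-like cells it stood at 121 CPM (104 to 141) in the control and 195 CPM (170.3 to 222) in the *Gli1 HHIPCKO* library, a ratio of 0.68 (0.39 to 0.98). Red cell-like cells held 134 and 194 CPM, and the share of thinned mesothelial-like cells with a *Hc* UMI, 11.5% and 13.7%, was no higher than that of thinned red cell-like cells in the *Gli1 HHIPCKO* library, 8.29% and 15.3%. The 9 AT2 markers, all detected, summed to 45640 and 55260 CPM in mesothelial-like cells, most of it *Sftpc* at 40700 and 47250 CPM. Per 1000 UMIs of these markers, mesothelial-like cells held 2.66 and 3.52 UMIs of *Hc* and AT2-like cells 2.72 and 3.25. The mesothelial-like *Hc* is therefore not read as a level of these cells. Its UMIs came from 46 control and 40 *Gli1 HHIPCKO* cells, few of the class, and their source was not tested. The ratio was 1.47 with high doublet scores left out, 0.33 thinned, -2.03 at resolution 2, where the class held 299 and 295 cells, and -2.32 with immediate early genes held out. In myofibroblast-like cells *Hc* stood at 7.39 and 3.97 CPM, a ratio of -0.90 (-1.52 to -0.29), far below red cell-like cells and likewise not read as a level of the class.

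*C7* encodes a component of the terminal pore, and it marked the parenchymal fibroblasts. In alveolar fibroblast-like cells it stood at 787 CPM (741 to 835) in the control and 1478 CPM (1446 to 1511) in the *Gli1 HHIPCKO* library. The level was higher in the *Gli1 HHIPCKO* library, with a log2 ratio of 0.91 (0.82 to 1.00). The proportion of cells with a *C7* UMI was 65.5% (60.9 to 70.0) in the control and 79.2% (77.1 to 81.2) in the *Gli1 HHIPCKO* library, and 60.1% (54.5 to 65.4) and 79.4% (77.1 to 81.7) after thinning, against 1.46% and 7.10% of thinned red cell-like cells. Thinning left out 110 and 331 cells, and median depth was 3208 and 3291 UMIs. Per thinned cell the median was 1 UMI in the control and 3 in the *Gli1 HHIPCKO* library, so both the share of cells and the amount per cell were higher. In the larger cluster of the class, led by *Nebl*, *C7* stood at 799 and 1500 CPM, and in the smaller, led by *Crabp1*, at 645 and 1032 CPM, the same order in each. The ratio passed the line of 1 with the libraries clustered separately, at 1.35, and with complement genes used in clustering, at 1.13.

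Other fibroblast levels of *C7* were higher in the *Gli1 HHIPCKO* library by about the same factor. It stood at 324 CPM (291 to 359) and 639 CPM (594 to 686) in the *Rbp4* *Lbp* cluster and at 118 CPM (100.2 to 138) and 222 CPM (199 to 247) in adventitial fibroblast-like cells, with ratios of 0.98 (0.80 to 1.17) and 0.91 (0.63 to 1.19). The adventitial ratio was 1.42 at resolution 2 and 1.26 with immediate early genes held out. The order alveolar fibroblast-like, *Rbp4* *Lbp*, adventitial fibroblast-like was the same in both libraries, with no overlap between neighbours. After thinning, a *C7* UMI was found in 38.7% and 49.4% of cells of the *Rbp4* *Lbp* cluster and in 13.3% and 24.5% of adventitial fibroblast-like cells, above the red cell-like shares. In the *Aqp1* *C1qtnf3* cluster *C7* stood at 6.998 CPM from 5 UMIs and at 111 CPM from 45 UMIs, a ratio of 3.99 (2.66 to 5.68), and in myofibroblast-like cells at 1.19 and 5.58 CPM, a ratio of 2.23 (1.24 to 3.37). Pericyte-like cells held 0 *C7* UMIs in the control, which allows up to 3.88 CPM, and 17 UMIs or 12.9 CPM in the *Gli1 HHIPCKO* library, higher on the log2 scale with an exact lower limit of 1.27. Such low levels are also found in classes without fibroblast identity. Red cell-like cells held 24.7 and 89.3 CPM of *C7*, B cell-like cells 13.0 and 202 CPM, and endothelial-like cells 17.8 and 182 CPM. Per 1000 UMIs of the 14 alveolar fibroblast markers, red cell-like cells held 22.0 and 26.2 UMIs of *C7* and alveolar fibroblast-like cells 20.6 and 36.5. In the *Gli1 HHIPCKO* library the B cell-like and endothelial-like intervals, 164 to 247 and 128 to 252 CPM, overlapped that of adventitial fibroblast-like cells, so the adventitial level of *C7* was not clear of these classes. The *Aqp1* *C1qtnf3* cluster stood higher in *C7* than red cell-like cells in that library, but their intervals, 81.0 to 149 and 72.8 to 108 CPM, overlapped. Its thinned share, 6.02%, did not exceed the red cell-like share. The *Gli1 HHIPCKO* library also held more alveolar fibroblast-like cells, and how far *C7* in the low groups comes from their free RNA was not tested.

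*Serping1* encodes the C1 inhibitor, a serpin that inactivates C1r and C1s, and it was found in every stromal class. In adventitial fibroblast-like cells it stood at 3708 CPM (3605 to 3814) in the control and 4719 CPM (4610.0 to 4830.0) in the *Gli1 HHIPCKO* library, a log2 ratio of 0.35 (0.30 to 0.40). In mesothelial-like cells it stood at 1872 CPM (1800 to 1945) and 2505 CPM (2415 to 2597), a ratio of 0.42 (0.34 to 0.50). *Serping1* was higher in the *Gli1 HHIPCKO* library in both of these classes. In other named classes the libraries were close, with 1802 and 1829 CPM in alveolar fibroblast-like, 864 and 861 CPM in vascular smooth muscle-like, 658 and 671 CPM in myofibroblast-like and 631 and 689 CPM in pericyte-like cells. None of these 4 ratios had an interval that excluded 0. The *Rbp4* *Lbp* cluster held 2587 and 2887 CPM, higher in the *Gli1 HHIPCKO* library by 0.16 (0.09 to 0.23), and the *Aqp1* *C1qtnf3* cluster 2108 and 2235 CPM, with a ratio of 0.08 (-0.04 to 0.20). In the control, neighbours overlapped between mesothelial-like and alveolar fibroblast-like cells and between myofibroblast-like and pericyte-like cells, and in the *Gli1 HHIPCKO* library only the latter pair overlapped. AT2-like cells held 4.0 and 4.89 CPM, below every stromal class and below red cell-like cells, at 161 and 304.5 CPM. A UMI was found in 70.7% and 68.7% of thinned myofibroblast-like cells against 11.7% and 30.1% of thinned red cell-like cells, so this low stromal level was above that of red cell-like cells.

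**Figure D3:**
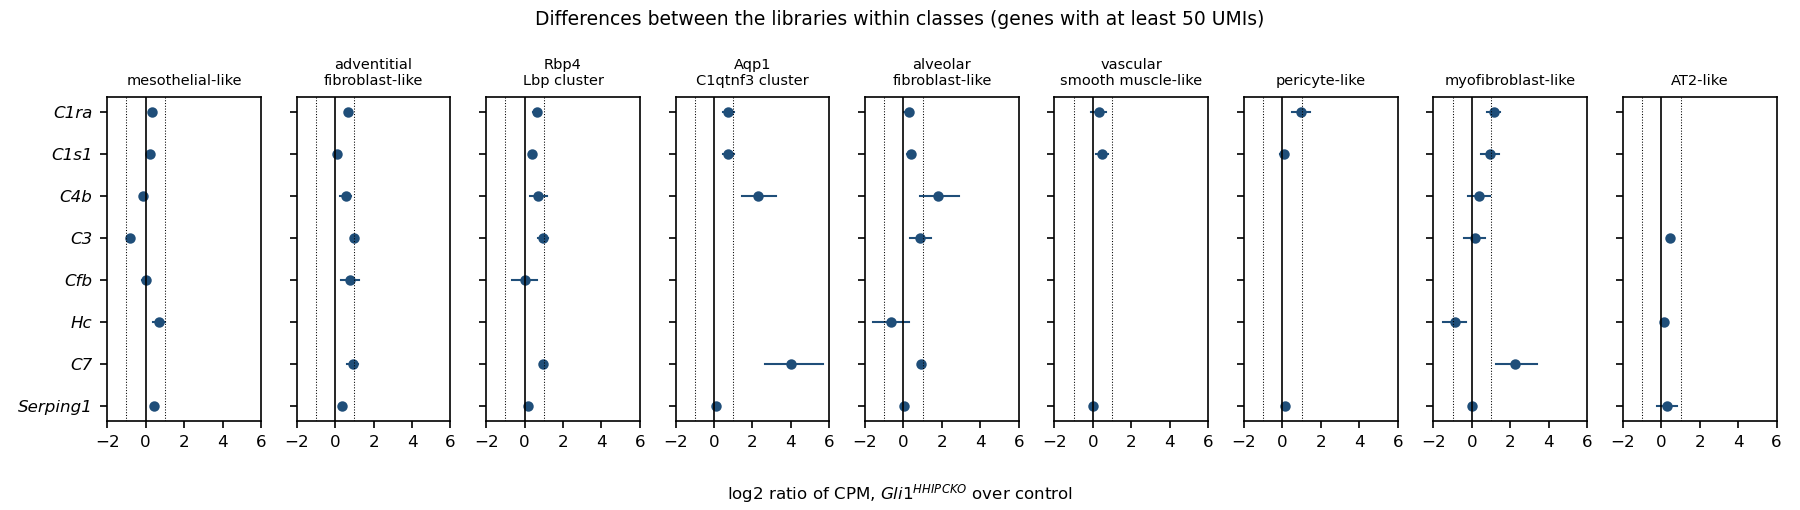
Log2 ratio of CPM, *Gli1 HHIPCKO* over control, with exact 95% intervals, for each of the 8 genes with at least 50 UMIs over both libraries in the class or cluster named above the panel, with solid lines at 0 and dotted lines at a log2 ratio of 1 in either direction. *C3* lies below 0 in mesothelial-like cells, at -0.80, and above 0 in adventitial fibroblast-like cells, at 0.99.

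Set against all genes, the differences of the 8 were mostly moderate in size and mostly in the direction of higher levels in the *Gli1 HHIPCKO* library. The 8 were chosen with earlier results of these data known, so the comparison with all genes is a description and not a test. A gene was counted in a class with at least 50 UMIs over both libraries, and the line was a log2 ratio of 1 in either direction. In the 7 classes, 37 of 56 pairs of gene and class were counted. Of these, 3 were at or past the line and higher in the *Gli1 HHIPCKO* library and 0 were lower, while the interval lay above 0 in 22, or 59.5%, and below 0 in 3, or 8.11%. Over all 56848 counted pairs of gene and class, 15.7% had an interval above 0 and 14.2% below 0, although a gene with more UMIs has a narrower interval and the numbers are not matched for level. Among the 22 are pairs that were not clear of background. They were *Hc* in mesothelial-like cells, *C1ra*, *C1s1* and *C7* in myofibroblast-like cells and *C3* and *C4b* in alveolar fibroblast-like cells. *C7* in adventitial fibroblast-like cells, also among the 22, was not clear of B cell-like and endothelial-like cells in the *Gli1 HHIPCKO* library. The 22 further include *C1ra* and *C1s1* in alveolar fibroblast-like cells, which changed direction with separate clustering. In mesothelial-like cells 0 of 7 counted members were past the line, beside 1.55% of 6824 genes that were higher and 1.49% that were lower. Adventitial fibroblast-like cells likewise had 0 of 7, beside 2.57% of 6894 genes higher and 0.899% lower. The adventitial count depends on the clustering, since *C3*, *C4b* and *C7* lay past the line at resolution 2, at 1.35, 1.12 and 1.42. In alveolar fibroblast-like cells 1 of 7 was higher, *C4b*, and 0 lower, beside 2.20% of 9371 genes higher and 1.65% lower. In myofibroblast-like cells 2 of 7 were higher, *C1ra* and *C7*, and 0 lower, beside 3.47% of 11238 genes higher and 2.05% lower. All 3 of these calls were at the low levels described above, no higher than in red cell-like cells beyond counting error. Vascular smooth muscle-like cells had 0 of 3 past the line, beside 1.91% of 4980 genes higher and 1.22% lower. Pericyte-like cells had 0 of 3, beside 1.98% of 6552 genes higher and 0.672% lower. AT2-like cells had 0 of 3, beside 1.44% of 10989 genes higher and 1.06% lower. The *Rbp4* *Lbp* cluster had 0 of 7 past the line, beside 1.89% of 6390 genes higher and 0.939% lower. The *Aqp1* *C1qtnf3* cluster had 2 of 5 higher, *C4b* and *C7*, and 0 lower, beside 2.56% of 4066 genes higher and 2.04% lower. Both reached the minimum of 50 UMIs mainly through the *Gli1 HHIPCKO* library, *C4b* with 16 and 45 UMIs and *C7* with 5 and 45. The thinned shares of *C4b* had overlapping intervals, and that of *C7* did not exceed the red cell-like share, so no excess is read from these calls.

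Medians showed the same lean. Over the counted members the median log2 ratio was 0.65 in adventitial fibroblast-like cells, beside 0.03 over all counted genes of the class, and 7 of 7 members were above 0. In the *Rbp4* *Lbp* cluster the median was 0.64 beside 0.03, with 6 of 7 above 0, and in alveolar fibroblast-like cells 0.39 beside 0.01, with 6 of 7 above 0. Mesothelial-like cells had a median of 0.24 beside 0.01, with 5 of 7 above 0. The 5 include *Hc*, at 0.68, which is not read as a level of these cells and raises this median. The lean did not reach every gene, as *C1s1* in adventitial fibroblast-like cells, *Cfb* in the *Rbp4* *Lbp* cluster and *Serping1* in alveolar fibroblast-like cells had intervals that included 0, and in mesothelial-like cells *C3* and *C4b* were below 0. In alveolar fibroblast-like cells *C3* and *C4b* were near background, and *C1ra* and *C1s1* changed direction with separate clustering. The adventitial level of *C7* was not clear of B cell-like and endothelial-like cells in the *Gli1 HHIPCKO* library. All of these are values of the same pair of mice, for genes chosen with earlier results of these data known.

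The members also resembled each other and other genes across classes. Over 20 points, 10 classes in each of the libraries, the gene with the highest Pearson correlation of log2(CPM + 10) with *C3* among 10976 genes was *Cfb*, at 0.969, followed by *Igfbp6*, at 0.969, and *Gpr39*, at 0.944. *C4b* also came closest to *Cfb*, at 0.969, followed by *Aldh1a2* and *Sfrp1*, while *Cfb* came closest to *Cdon*, *C3* and *C4b*. *C3*, *C4b* and *Cfb* shared a mesothelial peak, although *C3* and *C4b* were not among the 3 genes closest to each other. *C1ra* came closest to *Pcolce*, at 0.943, *C1s1*, at 0.942, and *S100a6*, and *C1s1* to *C1ra*, *Pcolce* and *Fmod*, at 0.942, 0.921 and 0.909. *C7* came closest to *Inmt*, at 0.985, which was among the markers that named alveolar fibroblast-like cells, then *Smim41* and *Tmem150c*. *Hc* came closest to *Car8*, *Sftpd* and *S100g*, each at 0.993, and *Serping1* to the matrix genes *Ltbp4*, *Col6a2* and *Col5a2*, at 0.973, 0.964 and 0.963. These points share their libraries and cells, and the correlations are a description only.

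Some of the members lie near each other in the genome. On GRCm38 with GENCODE vM21, *C1ra* spans chr6:124512405-124523443 on the plus strand and *C1s1* spans chr6:124530345-124542359 on the minus strand, 6.90 kb apart. *Cfb* spans chr17:34856374-34862518 and *C4b* spans chr17:34728380-34743882, both on the minus strand and 112.5 kb apart, and *C3* lies farther along the same chromosome at chr17:57203970-57228136. *C2*, which encodes the partner of C4, lies 0.086 kb from *Cfb*, and the annotated gene *Gm20547* overlaps both on the same strand, so the division of reads between *C2* and *Cfb* is uncertain. *C7* spans chr15:4988762-5063740, *Hc* spans chr2:34983331-35061438 and *Serping1* spans chr2:84765387-84775444, all on the minus strand. The neighbours *C1ra* and *C1s1* were alike across most classes, and *C4b* and *Cfb*, which have *C4a* between them, shared the mesothelial peak.

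Promoter sequences from RefSeq on GRCm38.p6, 250 bases before to 50 after the start, were matched by symbol for 5 of the 8, *C3*, *C7*, *Hc*, *C1ra* and *C1s1*. They were searched on both strands for the letters GGG, any 2 bases and TTTCC (NF-kB), TTGCNNAA (C/EBP), TTCNNNGAA (STAT), GAAA, any 2 bases and GAAA (interferon response) and GACCACCCA (GLI), since acute phase, interferon and Hedgehog programs are known to act through such letters. Of 32851 promoters of the same length, 1.63%, 10.8%, 8.30%, 3.44% and 0.253% hold them in that order. *C3* and *C7* were both higher in adventitial fibroblast-like cells and the *Rbp4* *Lbp* cluster of the *Gli1 HHIPCKO* library. For *C7* the adventitial level was not clear of B cell-like and endothelial-like cells in that library. Shown are the windows of these genes and of the neighbours *C1ra* and *C1s1*, with the matches in capitals. They lie at chr17:57228087-57228386 (*C3*, minus strand), chr15:5063724-5064023 (*C7*, minus strand), chr6:124512371-124512670 (*C1ra*, plus strand) and chr6:124542310-124542609 (*C1s1*, minus strand), each written from 5′ to 3′ on the strand of its gene.
C3: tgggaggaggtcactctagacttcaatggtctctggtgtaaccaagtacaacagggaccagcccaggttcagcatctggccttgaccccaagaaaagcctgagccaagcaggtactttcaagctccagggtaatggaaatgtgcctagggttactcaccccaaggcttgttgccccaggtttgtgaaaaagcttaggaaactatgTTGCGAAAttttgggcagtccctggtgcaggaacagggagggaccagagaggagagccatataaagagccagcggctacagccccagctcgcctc
C7: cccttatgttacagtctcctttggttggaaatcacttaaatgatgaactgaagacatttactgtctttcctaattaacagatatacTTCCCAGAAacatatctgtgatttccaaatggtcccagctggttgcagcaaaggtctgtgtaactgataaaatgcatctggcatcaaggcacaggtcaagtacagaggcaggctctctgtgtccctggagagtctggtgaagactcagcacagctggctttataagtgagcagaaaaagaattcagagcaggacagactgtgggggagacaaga
C1ra: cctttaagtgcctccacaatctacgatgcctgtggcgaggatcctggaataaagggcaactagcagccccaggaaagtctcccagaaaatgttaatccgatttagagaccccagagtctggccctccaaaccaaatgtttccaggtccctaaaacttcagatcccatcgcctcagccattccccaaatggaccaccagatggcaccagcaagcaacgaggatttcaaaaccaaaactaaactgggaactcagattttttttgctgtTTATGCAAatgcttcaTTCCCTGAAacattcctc
C1s1: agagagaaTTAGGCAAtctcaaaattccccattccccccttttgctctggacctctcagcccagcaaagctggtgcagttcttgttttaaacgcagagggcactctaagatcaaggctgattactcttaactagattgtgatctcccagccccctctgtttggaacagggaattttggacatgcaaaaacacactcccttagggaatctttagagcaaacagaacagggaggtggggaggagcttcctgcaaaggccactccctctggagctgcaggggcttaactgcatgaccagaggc
The *C3* promoter holds TTGCGAAA, a match to the C/EBP letters that begins 45 bases before the start, and the *C7* promoter holds TTCCCAGAA, a match to the STAT letters that begins 164 bases before the start. *C1ra* holds TTATGCAA, the C/EBP letters read on the other strand, and TTCCCTGAA, the STAT letters, both after the RefSeq start. *C1s1* holds TTAGGCAA, the C/EBP letters read on the other strand, 242 bases before the start, and the window of its other RefSeq start holds no match. No match to the 5 sets of letters was found in the *Hc* window, and none to the NF-kB, interferon or GLI letters in any of these windows. No match overlapped another. Of 41 genes of the complement lists with a promoter, 8 hold the C/EBP letters and 9 the STAT letters in any of their windows, whereas the shares given above are per promoter. A match is a description of the sequence only.

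The members can also be set beside a wider list that contains them. A list of 54 complement genes, members included, had 14 counted in mesothelial-like cells, with 11 or 78.6% above 0 and a median of 0.25, beside 50.7% and 0.01 for all counted genes. The 11 include *Hc*, which is not read as a level of these cells. In adventitial fibroblast-like cells 12 of 15 or 80.0% were above 0 with a median of 0.55, beside 53.5% and 0.03. In alveolar fibroblast-like cells 9 of 14 or 64.3% were above 0 with a median of 0.24, beside 50.6% and 0.01, and in AT2-like cells 10 of 13 or 76.9% with a median of 0.12, beside 50.6% and 0.00. Members above 0 were 5 of 7 counted in mesothelial-like, 7 of 7 in adventitial fibroblast-like, 6 of 7 in alveolar fibroblast-like and 3 of 3 in AT2-like cells. The list thus partly repeats the members, and its shares do not show a lean of the other complement genes. *C2* resembled *Cfb*, its neighbour, in being highest in mesothelial-like cells, at 980.2 and 1178 CPM, with 111 and 191 CPM in adventitial fibroblast-like cells, a ratio of 0.78 (0.49 to 1.08). It was lower in the *Gli1 HHIPCKO* library in myofibroblast-like cells, at 13.4 and 3.54 CPM and a ratio of -1.91 (-2.52 to -1.34), in vascular smooth muscle-like cells, at 81.7 and 42.3 CPM, and in alveolar fibroblast-like cells, at 52.5 and 39.2 CPM. *C6*, a partner of *C7* in the terminal pore, was highest in AT2-like cells, at 87.2 and 102 CPM, and alveolar fibroblast-like cells, where *C7* was highest, held 13.7 and 23.3 CPM. *Colec11*, a lectin pathway receptor, was the list's gene past the line in mesothelial-like cells, at 57.8 and 130.1 CPM and a ratio of 1.17 (0.77 to 1.58). The gene past the line and lower in adventitial fibroblast-like cells was *Vtn*, which encodes vitronectin, an inhibitor of the terminal pore, at 42.6 CPM from 56 UMIs and 2.64 CPM from 4 UMIs. The C1q genes *C1qa*, *C1qb* and *C1qc*, made mainly by macrophages, each had fewer than 50 UMIs in every class and cluster compared, in libraries sorted against CD45.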

How the data were processed

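Single-cell RNA was measured in 1 control and 1 *Gli1 HHIPCKO* lung at P14. The deposited matrices hold UMI counts per gene and barcode on mm10, which the authors made with Cell Ranger. The labels name version 3.1.0 and the file headers 6.1.0, and the labels and the paper also differ on the 3′ or 5′ kit, so the end of the transcript that was read is not certain. Barcodes passed with 200 to 6000 genes and no more than 10% of UMIs from mitochondrial genes. After scaling to 10000 per cell and taking logs, cells were clustered from 2000 variable genes, 30 principal components and 20 neighbours with Leiden at resolution 1, with 83 genes held out, among them the 54 complement genes, and mesenchymal and airway cells were each put through a further round. Names came from 20 marker lists of 189 genes, those for fibroblasts taken largely from the study's own signature genes, and were given when the best list scored at least 0.3 with at least 3 markers detected in 10% of cells, a marker or at least 3 immediate early genes were among the 10 leading genes, no other class had more markers there, no second list reached 0.7 of the best, and no other lineage scored 0.3. Both myofibroblast lists were joined to 1 class, and shallow clusters without a leading marker stayed unnamed. These thresholds were set and revised after the clusters were seen. The members and lists were chosen with earlier results of these data known.

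UMIs were summed per class and library and divided by the class total. Ratios have exact binomial intervals at 95%, 0 counts were given a limit of 3 counts, and no p-value was computed because each group is 1 mouse. Cells were thinned to 2000 UMIs for shares. Precision follows the UMIs counted and is given by the interval of each ratio. Genes are named when they are members, belong to a list of complement, acute phase, interferon or immediate early genes, lead a cluster, mark a class, or are among the 3 most similar to a member. Cells of classes with fewer than 100 cells in a library, peribronchial fibroblast-like, ciliated, club and Schwann cell-like, were left out. Doublets were not removed from the values reported. In an alternative, each cell was scored by the share of simulated doublets among its nearest neighbours, and the highest scores, 0.8% per 1000 cells or 953 control and 1174 *Gli1 HHIPCKO* cells, were left out. The code was tested on simulated data. Clustering used leidenalg 0.10.2, igraph 0.11.9 and scikit-learn 1.9.0, intervals used scipy 1.17.1, tables used pandas 2.3.3 and numpy 2.4.6, and plots used matplotlib 3.10.9, all under Python 3.11.15.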

Additional observations from a re-analysis of the deposited data

Results flagged for a closer look

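The log2 ratio of *C3* was -0.80 in mesothelial-like cells, whereas adventitial fibroblast-like cells had 0.99, and it was 0.85 in alveolar fibroblast-like cells at a level near that of red cell-like cells. The ratio of *Hc* was -0.90 in myofibroblast-like cells and 0.68 in mesothelial-like cells, neither read as a level of these cells. The difference between classes was not tested for either gene, and its cause was not tested.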

How the results depend on the processing

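No paired analysis was possible because each group is 1 mouse. Over 49 results and 11 alternatives, 420 of 471 values lay within the counting interval and 51 outside it, and 18 had the opposite sign. *C4b* in alveolar fibroblast-like cells turned to -0.27 with the libraries clustered separately. *C3* in mesothelial-like cells stayed below 0 throughout, at -0.74 with high doublet scores left out, -0.65 as a mean over cells, -0.74 thinned, -0.67 at resolution 2 and -0.70 with immediate early genes held out. *C4b* in these cells came near 0, at -0.04 as a mean over cells and -0.02 at resolution 2. *C7* in alveolar fibroblast-like cells was larger with the libraries clustered separately, at 1.35, and with complement genes used in clustering, at 1.13. *Hc* in AT2-like cells was 0.06 with the reduced total and 0.16 thinned. *C1s1* in adventitial fibroblast-like cells was 0.35 at resolution 0.5, 0.42 at resolution 2 and 0.32 with immediate early genes held out, and *Serping1* there was 0.28 as a mean over cells, 0.49 at resolution 2 and 0.43 with immediate early genes held out. The unnamed clusters have values only where the clustering was kept, and vascular smooth muscle-like cells have none with separate clustering.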

Other observations

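Some genes that respond to acute phase signals were also higher in the *Gli1 HHIPCKO* library. *Lcn2*, which encodes an iron-binding protein of innate defence, stood at 971 and 2129 CPM in AT2-like cells, a log2 ratio of 1.13. *Hp*, which encodes haptoglobin, stood at 9.35 and 87.6 CPM in alveolar fibroblast-like cells but at 369.9 and 350.4 CPM in AT2-like cells, so it was higher in the former class and slightly lower in the latter. *Cebpd*, a regulator of such genes, stood at 681 and 1288 CPM in alveolar fibroblast-like cells and at 1355 and 2120 CPM in adventitial fibroblast-like cells. Of a list of 13 acute phase genes, 10 were counted in alveolar fibroblast-like cells, with 4 higher past the line, beside 2.20% of all genes, and a median of 0.91 beside 0.01. There were 7 in adventitial fibroblast-like cells, with 1 past it, beside 2.57%, and a median of 0.50 beside 0.03, 9 in mesothelial-like cells, with 2 past it, beside 1.55%, and a median of 0.25 beside 0.01, and 10 in AT2-like cells, with 1 past it, beside 1.44%, and a median of 0.41 beside 0.00. The 2 in mesothelial-like cells were *Lcn2* and *Nfkbia*. *Lcn2* stood there at 102.6 and 341.8 CPM, beside AT2 markers that summed to 45640 and 55260 CPM. Like *Hc*, it is not read as a level of these cells, and its source was not tested. The 4 in alveolar fibroblast-like cells were *Hp*, *Lcn2*, *Saa3* and *Socs3*. There *Lcn2* rested on 1 and 61 UMIs in the cluster led by *Nebl* and on 1 and 5 in that led by *Crabp1*. These counts lie far below the AT2-like level and are likewise not read as a level of the class. The list was chosen with earlier results of these data known. The interferon list of 12 genes had no common direction. Its median was -0.69 in mesothelial-like, -0.77 in pericyte-like, -0.19 in alveolar fibroblast-like, -0.04 in adventitial fibroblast-like, 0.27 in AT2-like, 0.31 in myofibroblast-like and 0.78 in vascular smooth muscle-like cells, over 3 to 10 counted genes, where the medians of all genes ran from -0.02 to 0.06. Immediate early genes, which also respond to tissue dissociation, had medians of 0.74 in mesothelial-like, 0.49 in adventitial fibroblast-like, 0.56 in alveolar fibroblast-like, 0.55 in myofibroblast-like, 0.50 in vascular smooth muscle-like, 0.91 in pericyte-like and 0.62 in AT2-like cells. They had medians of 0.08 in the *Rbp4* *Lbp* cluster and 0.24 in the *Aqp1* *C1qtnf3* cluster, where the counted complement genes among the 8 had 0.64 and 0.75. Handling of the tissue thus may differ between the libraries, and whether it bears on the complement genes was not tested.

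With 1 mouse per group, deletion, tamoxifen, sex, litter and batch cannot be told apart. Intervals cover counting error only. UMIs of the genes were found in classes that should lack them, in red cell-like cells more so in the *Gli1 HHIPCKO* library, and were compared but not subtracted, and their source was not tested. Class names rest on markers, and the myofibroblast-like and AT2-like classes lay in different clusters in each library. Transcripts say nothing of secreted or active complement protein, and sorting and dissociation select cells. The assignment of reads to close copies and to overlapping genes is uncertain.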
